A study of Mus musculus with 8 samples.

Results

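The genes described here are 31 markers of microglia and brain macrophages, taken as the rows of the count table whose Ensembl identifiers carry the listed symbols. All 31 were found among the 55487 genes of the table, and all 31 passed the filter on low counts that left 17047 genes for testing. The tissue was hypothalamus from C57BL/6J mice, with no transgene, mutation or agent given beside the oxygen level. The hypoxia group has 4 libraries from mice that breathed 7% oxygen in a chamber for 2 h, and the normoxia group has 4 from mice left in ordinary air, labelled 21% oxygen, and taken at the same 2 h. The labels give no age or sex. The wider question of the series is whether low oxygen reprograms the glucocorticoid receptor.

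Microglia are the resident immune cells of the brain parenchyma. They arise from yolk sac progenitors, need signalling through the receptor Csf1r to survive, and scan the tissue with motile processes that sense purines released by damaged or active cells. Perivascular and meningeal macrophages are related cells that line vessels and the brain surface and carry scavenger receptors such as Mrc1 and Cd163. In whole tissue both kinds of cell are a small minority, so their genes stand for a small share of the RNA.

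The promoter sequences of 4 members are shown. Irf8, Sall1 and P2ry13 had the smallest p-values of the 31, and C1qb is shown beside them as a complement gene with a log2 fold change near 0 (−0.01). Each is the stretch of 250 bases before the RefSeq start (GRCm38.p6), 5′ to 3′ on the strand of the gene, with motif matches in capitals. Irf8 lies at chr8:120736108-120736357 (plus strand), Sall1 at chr8:89044163-89044412 (minus strand), P2ry13 at chr3:59210883-59211132 (minus strand) and C1qb at chr4:136886201-136886450 (minus strand).
Irf8: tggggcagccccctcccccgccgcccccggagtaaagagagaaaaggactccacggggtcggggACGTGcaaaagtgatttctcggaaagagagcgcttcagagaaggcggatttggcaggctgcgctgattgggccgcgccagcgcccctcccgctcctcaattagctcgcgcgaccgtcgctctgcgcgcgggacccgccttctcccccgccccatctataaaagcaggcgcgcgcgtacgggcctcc
Sall1: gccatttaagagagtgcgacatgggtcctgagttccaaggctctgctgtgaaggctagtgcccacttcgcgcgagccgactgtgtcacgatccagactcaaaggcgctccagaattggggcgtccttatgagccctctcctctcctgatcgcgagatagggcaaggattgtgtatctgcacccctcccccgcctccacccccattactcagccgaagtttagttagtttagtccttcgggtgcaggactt
P2ry13: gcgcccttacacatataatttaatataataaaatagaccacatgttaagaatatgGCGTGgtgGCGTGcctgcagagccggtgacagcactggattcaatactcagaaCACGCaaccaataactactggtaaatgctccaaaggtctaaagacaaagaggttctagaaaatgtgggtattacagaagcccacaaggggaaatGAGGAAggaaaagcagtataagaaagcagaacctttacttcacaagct
C1qb: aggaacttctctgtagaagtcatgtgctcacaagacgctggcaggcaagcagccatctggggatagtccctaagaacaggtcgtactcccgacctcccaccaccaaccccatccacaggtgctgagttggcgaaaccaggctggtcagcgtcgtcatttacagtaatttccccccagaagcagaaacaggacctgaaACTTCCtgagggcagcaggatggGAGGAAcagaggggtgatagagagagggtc
Capitals mark 3 motifs searched on both strands. They are the purine box GAGGAA, a motif of the myeloid factor encoded by Spi1, the ETS core GGAAGT, and the core of the hypoxia response element, ACGTG or GCGTG. The RefSeq table held promoters for 22 of the 31 members. GAGGAA occurred in 12 of these 22 (54.5%) and in 23.3% of all 32851 promoters, and GGAAGT in 10 (45.5%) and in 19.7%. A hypoxia core occurred in 7 (31.8%) and in 38.6% of all promoters. The Irf8 window has 1 hypoxia core, its first base at −186 from the start, the P2ry13 window has 3 such cores and a purine box, and the C1qb window has a purine box and an ETS core. The Sall1 window shown has none of these motifs. Sall1 is still counted among the members with GGAAGT and with a hypoxia core, through another RefSeq start that is not shown. GAGGAA and GGAAGT share the letters GGAA and can overlap, which they do in none of the windows shown. Members with several RefSeq starts had several chances of a match, and a match describes the letters only.

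The 8 libraries held 16994473 (normoxia replicate 3) to 21694383 counts (normoxia replicate 4), and levels are given as CPM, counts scaled by the TMM method to a common library total. Hypothalamic transcripts were present in each library, among them Pmch at 160 to 374 CPM, Hcrt at 47.5 to 120 and Oxt at 55.4 to 126. Other markers of the 8 read were low, such as Sim1 at 6.65 to 20.0 CPM and Agrp at 1.01 to 3.56 CPM. Each of the 8 was lowest in normoxia replicate 2. Normoxia replicate 2 stood apart, with 10 cortex and hippocampus genes summing to 516 CPM against 79.6 to 170 CPM in the other 7 libraries. Pituitary genes summed to 90.4 CPM there and to 60.2 CPM in hypoxia replicate 4, against at most 28.7 CPM elsewhere. Of 9 neutrophil genes none passed the filter, Ly6g had a count of 0 in all libraries, and the sum of the 9 ran from 0.387 to 1.65 CPM in hypoxia and from 0.846 to 1.63 CPM in normoxia. Lymphocyte genes summed to 3.19 to 7.73 CPM in hypoxia and 3.39 to 6.86 CPM in normoxia. The sum of 7 blood monocyte genes was 34.4 to 37.4 CPM in hypoxia and 32.4 to 40.6 CPM in normoxia. Only 2 of these 7 passed the filter, and Ccr2, given below, was at 0.193 to 1.86 CPM. Most of the sum therefore came from other genes of that list, and it does not measure monocyte content. Per the design text the 4 libraries of a group are biological replicates, and p-values reflect only how much these libraries varied.

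After 2 h of hypoxia, 0 of the 31 genes differed between the groups at a Benjamini-Hochberg adjusted p under 0.05 in edgeR's quasi-likelihood test, where 2.15% of all genes tested did. DESeq2 and limma-voom also called 0 of the 31, where they called 5.9% and 2.44% of all genes. Adjusted p-values ran from 0.125 (Irf8) to 0.999 (Itgb5). An unadjusted p under 0.05 was reached by 3 members (9.68%), Irf8, Sall1 and P2ry13, against 19.3% of all genes. The groups did not overlap for 2 members (6.45%), Irf8 and Sall1, against 13.4% of all genes. Log2 fold changes, hypoxia relative to normoxia, were negative for 20 members and positive for 11. Their median was −0.03, beside −0.01 over all genes tested. In bulk tissue, fewer cells of a type and less RNA per cell cannot be told apart.

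The design still bounded most of the changes. For 23 of the 31 genes the 95% interval of the difference lay within 1.5-fold in either direction, and for 29 within 2-fold, the exceptions being Sall1 and Cd14. In edgeR's estimates the median biological coefficient of variation of the members was 11.9%, against 11.1% over all genes tested. These estimates draw each gene toward the trend over all genes. They therefore cannot decide whether the members varied as much between libraries of a group as other genes.

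**Figure D1:**
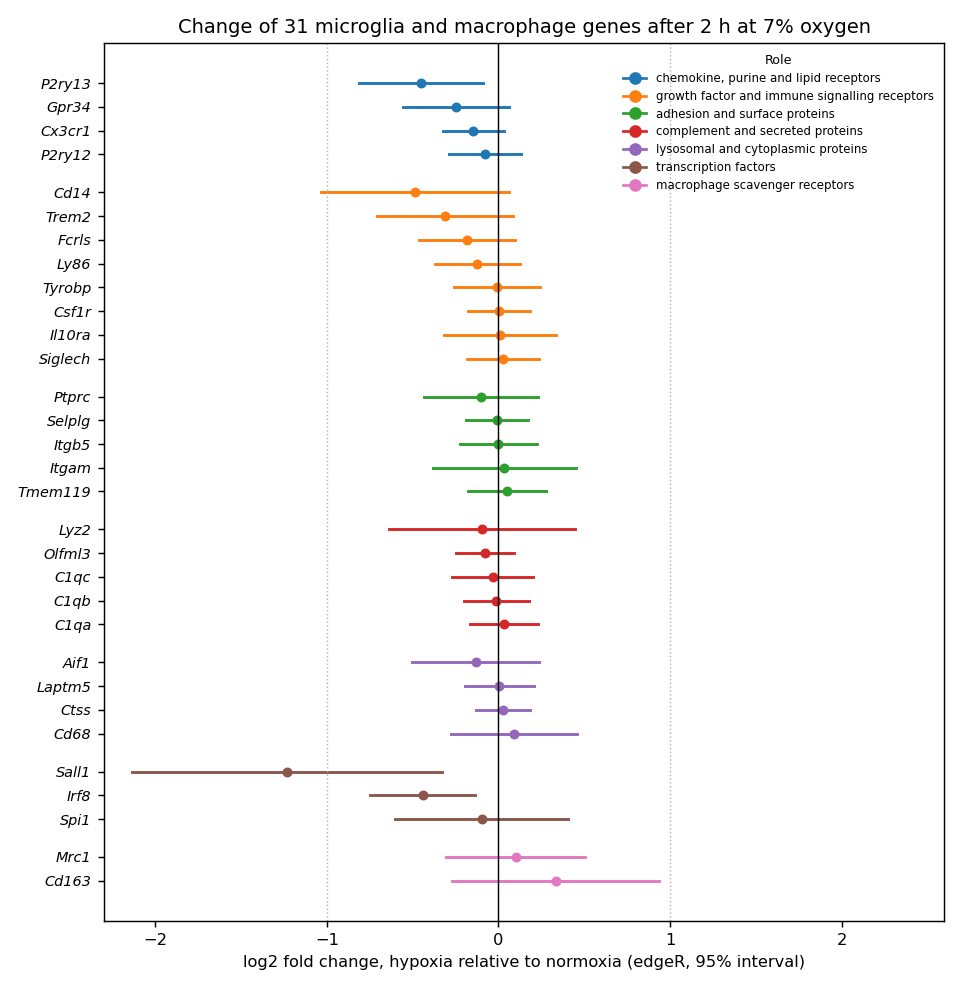
Log2 fold change of each of the 31 genes, hypoxia relative to normoxia (horizontal axis), with the 95% interval from edgeR as a bar, grouped and coloured by role. The intervals of Sall1, Irf8 and P2ry13 lie wholly below 0, those of the other 28 include 0, and 0 genes have an adjusted p under 0.05.

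The purine, chemokine and lipid receptors sense signals from neighbouring cells, and all 4 had lower mean levels in hypoxia, none past the test. P2ry13 (ENSMUSG00000036362; chr3:59207892-59210882 in GRCm38), a receptor for ADP, was at 6.58, 6.24, 5.70 and 7.84 CPM in hypoxia replicates 1 to 4 and at 10.5, 8.61, 6.66 and 10.2 CPM in normoxia replicates 1 to 4. Normoxia replicate 3 fell within the range of the hypoxia group and the other 3 normoxia libraries lay above it. The log2 fold change was −0.45 ± 0.16 (SE), with a 95% interval of −0.81 to −0.09 and an adjusted p of 0.168 in edgeR.

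P2ry12, the neighbouring gene on chromosome 3, encodes the ADP receptor through which microglial processes are drawn to injury. It was at 22.9, 25.3, 22.9 and 22.9 CPM in hypoxia and 27.0, 26.2, 20.2 and 25.6 CPM in normoxia. Normoxia replicate 3 was the lowest of all 8 libraries while its 3 group mates were the highest. The log2 fold change was −0.08 ± 0.09 (SE; edgeR adjusted p = 0.695). Cx3cr1, the receptor for the neuronal chemokine fractalkine, was at 38.2, 40.4, 36.0 and 40.8 CPM in hypoxia and 46.2, 44.1, 36.8 and 44.9 CPM in normoxia. Normoxia replicate 3 again fell within the hypoxia range and the other 3 lay above it, with a log2 fold change of −0.15 ± 0.08 (adjusted p = 0.340). Gpr34, a receptor for lysophosphatidylserine, was at 7.16, 7.19, 7.15 and 7.54 CPM in hypoxia and 9.73, 8.61, 6.32 and 9.67 CPM in normoxia. The hypoxia libraries were tightly grouped and lay between normoxia replicate 3 and the other 3 normoxia libraries (log2 fold change −0.24 ± 0.14, adjusted p = 0.363). The exons of Cx3cr1 and P2ry12 overlap genes on the opposite strand (Gm33858 by 78 bases and Med12l by 9), so these 2 are uncertain if the counting ignored strand.

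Normoxia replicate 3, the library with the fewest counts, decided whether these groups overlapped. It held the lowest level of 14 of the 31 members, so its omission by itself favours separation with lower levels in hypoxia. With it left out, 7 members had no overlap (22.6%), all lower in hypoxia, close to the 18.5% of all genes under the same omission. They were the 4 receptors above with Trem2, Sall1 and Irf8, and 0 of the 31 had an adjusted p under 0.05 in that edgeR fit, which called 35 of all genes (0.203%).

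The receptors for growth factors and immune signals were 8, of which 5 had a negative and 3 a positive log2 fold change. Csf1r, the receptor for the survival factors Csf1 and Il34, was at 82.6, 93.9, 82.8 and 92.7 CPM in hypoxia and 89.2, 95.1, 75.1 and 91.9 CPM in normoxia. The hypoxia libraries fell inside the normoxia range. Its log2 fold change was 0.00 ± 0.08, with an interval of −0.18 to 0.18, and 873 bases of its exons overlap Hmgxb3 on the opposite strand. Cd14, a co-receptor for bacterial lipopolysaccharide, had the smallest p of these 8. It was at 1.26, 2.08, 1.21 and 1.65 CPM in hypoxia and 2.59, 1.44, 2.30 and 2.32 CPM in normoxia, where 3 normoxia libraries lay above the hypoxia group and replicate 2 within it. Its log2 fold change was −0.49 ± 0.24 (interval −1.03 to 0.06, adjusted p = 0.308), the widest interval after those of Sall1 and Cd163.

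Trem2, a lipid-sensing receptor, signals through the adaptor encoded by Tyrobp. Trem2 was at 6.82, 8.10, 5.36 and 6.29 CPM in hypoxia and 9.69, 8.51, 5.86 and 8.81 CPM in normoxia, with a log2 fold change of −0.31 ± 0.18 (adjusted p = 0.366). Tyrobp had −0.01 ± 0.11. The other 4 lay closer to 0 than Trem2: Fcrls, an Fc receptor-like gene, had −0.18, Ly86, which encodes the partner of the Toll-like protein Cd180, −0.12, the lectin gene Siglech 0.03 and Il10ra, a chain of the interleukin-10 receptor, 0.01.

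The complement genes lay close to 0. C1qa, C1qb and C1qc encode the chains of C1q, the recognition protein of the classical complement pathway, and lie side by side on the minus strand of chromosome 4 (chr4:136880129-136898803 from the end of C1qb to the start of C1qa). C1qa was at 32.8, 37.8, 33.9 and 36.1 CPM in hypoxia and 34.5, 39.8, 30.0 and 33.4 CPM in normoxia, the normoxia group spanning the hypoxia group. The log2 fold changes were 0.03 ± 0.09 for C1qa, −0.01 ± 0.09 for C1qb and −0.03 ± 0.10 for C1qc (SE), and the interval of C1qa ran from −0.17 to 0.23. The 3 chains kept close proportions within each library. The CPM ratio of C1qb to C1qa ran from 0.827 to 0.954 and that of C1qc to C1qa from 0.839 to 0.985, with hypoxia replicate 3 lowest in both.

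The other secreted products were Olfml3, a secreted glycoprotein, and Lyz2, the lysozyme of myeloid cells. Olfml3 had the smallest p of the complement and secreted group, at a log2 fold change of −0.08 ± 0.08 (interval −0.25 to 0.09, adjusted p = 0.605). Lyz2 was uneven within groups, at 7.11, 14.2, 6.76 and 8.84 CPM in hypoxia and 9.36, 7.92, 9.48 and 12.5 CPM in normoxia. It was highest in hypoxia replicate 2, its log2 fold change was −0.09 ± 0.24, and it is uncertain because Lyz1 is a near-identical copy.

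The surface and adhesion genes had log2 fold changes from −0.10 to 0.05. Ptprc, the pan-leukocyte phosphatase CD45, had the smallest p of the 5 (log2 fold change −0.10 ± 0.15, interval −0.43 to 0.23, adjusted p = 0.749). Tmem119, a membrane protein used to tell microglia from blood-derived macrophages, was at 16.5, 19.4, 18.02 and 17.9 CPM in hypoxia and 16.8, 20.8, 15.5 and 16.2 CPM in normoxia (log2 fold change 0.05 ± 0.10). The integrin genes Itgam and Itgb5 had 0.03 and −0.00, and Selplg, a selectin ligand, had −0.01. Exons of Itgam are shared with Gm49368 on the same strand over 3450 bases, so its counts are uncertain.

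The lysosomal and cytoplasmic genes gave log2 fold changes between −0.13 and 0.09. Aif1, which encodes the actin-binding protein IBA1 used to stain microglia, had the smallest p of the 4 (−0.13 ± 0.16, interval −0.50 to 0.23, adjusted p = 0.699). Ctss, a lysosomal protease, had 0.02, Laptm5, a lysosomal membrane protein, 0.00, and Cd68, a lysosomal glycoprotein of phagocytes, 0.09.

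The transcription factors held the 2 members without overlap. Irf8 (ENSMUSG00000041515; chr8:120736358-120756694, plus strand), a factor needed for microglia to develop, was at 2.61, 3.14, 2.80 and 3.34 CPM in hypoxia and 4.37, 4.36, 3.91 and 3.54 CPM in normoxia. Every hypoxia library lay below every normoxia library, though the nearest 2, hypoxia replicate 4 and normoxia replicate 4, were close. In edgeR the log2 fold change was −0.44 ± 0.14 (SE), with an interval of −0.75 to −0.13 and an adjusted p of 0.125. Leaving out each library in turn gave −0.50 to −0.38, with adjusted p from 0.105 to 0.305.

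Sall1 (ENSMUSG00000031665; chr8:89027235-89044162, minus strand) encodes a zinc finger repressor that maintains microglial identity. It was at 19.5, 19.8, 15.6 and 23.7 CPM in hypoxia and 32.1, 97.0, 28.9 and 26.8 CPM in normoxia. The hypoxia group lay below all normoxia libraries, and normoxia replicate 2 was far above the rest. The log2 fold change was −1.23 ± 0.40 (interval −2.13 to −0.33, adjusted p = 0.138). In normoxia replicate 2 Sall1 was 1.80 above its mean over all libraries on the log2 scale. The next member there, Fcrls, was 0.41 above its own mean. Whether the Sall1 level in this tissue comes from microglia was not tested. Normoxia replicate 2 is the library rich in cortex and hippocampus genes, with Slc17a7, a vesicular glutamate transporter of neurons there and chosen after its values were seen, at 384 CPM against 7.92 to 80.3 CPM elsewhere. The part of that tissue in the Sall1 level was not tested, but the difference without the library was measured. Without normoxia replicate 2, Sall1 was called lower at a log2 fold change of −0.57 (edgeR adjusted p = 0.0359), in a fit that called 3.91% of all genes. Without both normoxia replicate 2 and hypoxia replicate 4 it was −0.68 (adjusted p = 0.00946), where 6.98% of all genes were called. In the fits that left out any of the other 7 libraries alone, Sall1 was not called. Hypoxia replicate 4, at 23.7 CPM, had the highest Sall1 level of its group, so leaving it out widens the difference by itself. Both omissions were chosen with earlier results known, and the calls they gave are not separate support for a lower level. Spi1, the master regulator of myeloid cells, was at 1.93, 2.93, 2.08 and 1.498 CPM in hypoxia and 1.79, 2.66, 2.41 and 2.18 CPM in normoxia, with overlapping groups (−0.10 ± 0.22, adjusted p = 0.849).

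**Figure D2:**
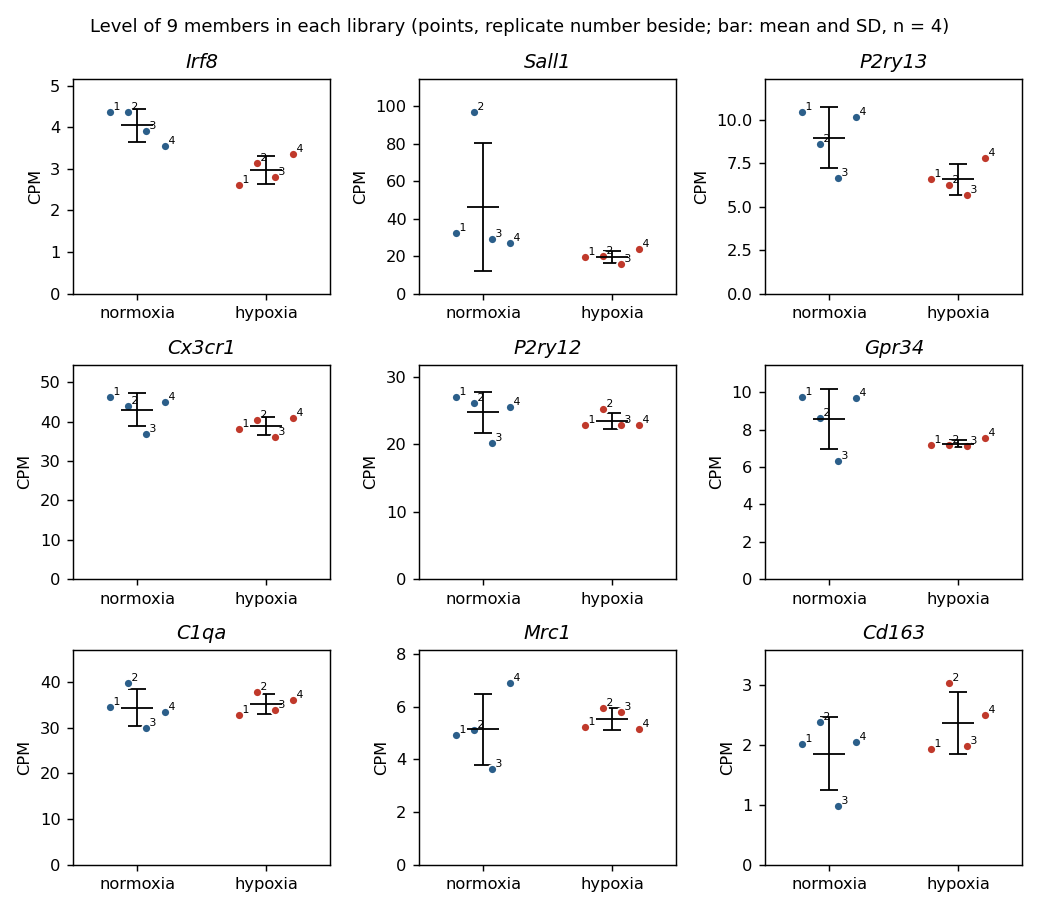
TMM-scaled CPM (vertical axes, each from 0) of 9 of the genes in each library, with points for libraries numbered by replicate and bars for the mean and SD of 4. Irf8 and Sall1 have no overlap between the groups, Sall1 reaches 97.0 CPM in normoxia replicate 2, and in P2ry13, Cx3cr1, P2ry12 and Gpr34 normoxia replicate 3 is the normoxia library that lies within or below the hypoxia range.

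The scavenger receptors of perivascular macrophages were the role with positive log2 fold changes in both members. Cd163, which takes up haptoglobin-bound haemoglobin, was at 1.93, 3.04, 1.98 and 2.50 CPM in hypoxia and 2.02, 2.39, 0.976 and 2.04 CPM in normoxia. Normoxia replicate 3 was the lowest and hypoxia replicate 2 the highest, and the other libraries were interleaved. The log2 fold change was 0.33 ± 0.27 (interval −0.27 to 0.94, adjusted p = 0.533). Mrc1, the mannose receptor, was at 5.22, 5.97, 5.80 and 5.14 CPM in hypoxia and 4.94, 5.10, 3.62 and 6.90 CPM in normoxia, the normoxia group spanning the hypoxia group (0.10 ± 0.18, adjusted p = 0.802).

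The genes tended to be high or low together in a library, whatever its group. The 31 genes summed to 531, 615, 523 and 585 CPM in hypoxia and to 612, 692, 520 and 595 CPM in normoxia, which gives 564 ± 44.0 and 605 ± 70.8 CPM (SD, n = 4 each). Hypoxia replicate 2 and normoxia replicates 1 and 2 were high, and hypoxia replicates 1 and 3 and normoxia replicate 3 were low, so the groups overlapped. Without Sall1 and Itgb5, the sum ran from 467 to 540 CPM in hypoxia and from 443 to 548 CPM in normoxia. Normoxia replicate 3 held the lowest level of 14 members, hypoxia replicate 3 of 9 and hypoxia replicate 1 of 7. The highest level of a member was in normoxia replicate 2 for 11, in hypoxia replicate 2 and normoxia replicate 1 for 7 each, and in normoxia replicate 4 for 6. The matching shares over all genes are not given here. Relative to each gene's mean, the median deviation was 0.11 on the log2 scale in hypoxia replicate 2 and −0.14 in normoxia replicate 3.

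**Figure D3:**
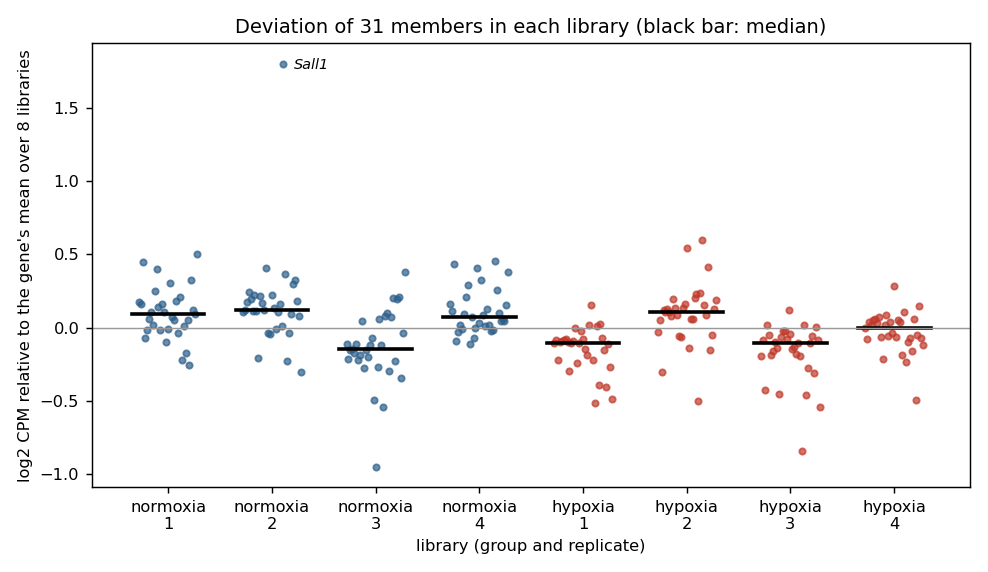
Log2 CPM of each of the 31 genes relative to that gene's mean over the 8 libraries (vertical axis), by library, with 1 point per gene and a black bar for the median. Medians run from −0.14 in normoxia replicate 3 to 0.12 in normoxia replicate 2, both normoxia libraries, and the single high point in normoxia replicate 2 is Sall1.

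Within groups, the members with a mean of at least 5 CPM varied together. Over 276 pairs of 24 members, the Pearson correlation of log2 CPM deviations from the group means had a median of 0.56 (−0.29 to 0.98), and 260 pairs were positive. These are descriptions over 8 libraries, and all genes of a library share its dissection and depth. No matching median over other genes is given here, so the correlation is not shown to be particular to these members. The C1q chains correlated at 0.82 to 0.93 with each other, and Csf1r with Laptm5 at 0.98, the highest pair. Sall1 had the lowest median correlation with the other members (0.28), followed by Itgb5 (0.28), while Laptm5 had the highest (0.76). The 5 genes closest to Cx3cr1 among 12292 were Emc2 (0.98), AU041133 (0.96), Mpv17l2 (0.94), Laptm5 (0.94) and Abcg1 (0.92). Those closest to C1qa were Wwp1 (0.99), Coq8a (0.98), Cdk2ap2 (0.98), Xrcc1 (0.97) and Pdhb (0.97), and those closest to Mrc1 were Lgi2 (0.96), Timm9 (0.95), Alkbh3 (0.95), 2510009E07Rik (0.95) and Reck (0.93). Of these, Laptm5 is itself one of the 31.

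Levels of different genes were compared per kb of exon. Ctss was the most abundant member, at a mean of 36.9 CPM per kb over the 8 libraries, followed by C1qa (33.5), C1qb (29.0), C1qc (16.4) and Csf1r (15.2). C1qa lay above C1qb, and C1qb above C1qc, in 8 of 8 libraries, while Ctss lay above C1qa in 7. Itgb5 (13.1) and Tyrobp (12.2) could not be ordered, since each was the higher in 4 libraries. P2ry12 (9.47), Cx3cr1 (9.08), Laptm5 (7.999), Fcrls (7.79), Tmem119 (7.62) and Lyz2 (7.24) followed. Neighbours among Laptm5, Fcrls, Tmem119 and Lyz2 changed order between libraries. Sall1 was at 3.73 ± 0.629 CPM per kb in the hypoxia group and 8.78 ± 6.44 in the normoxia group (SD over 4 libraries each), and its normoxia values ranged up to 18.4 in replicate 2.

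The middle of the order ran through Selplg (5.24 CPM per kb), Cd68 (5.02), Gpr34 (3.79), Siglech (3.31), P2ry13 (3.08), Olfml3 (2.90), Aif1 (1.99), Ly86 (1.95), Trem2 (1.502), Il10ra (1.30), Cd14 (1.07) and Itgam (1.03). At the lower end stood Mrc1 (0.838), Spi1 (0.811), Irf8 (0.498), Cd163 (0.386) and Ptprc (0.233). The parenchymal marker P2ry12 was thus far above both scavenger receptors per kb. Some neighbours in the middle and lower parts changed order between libraries. Selplg lay above Cd68, P2ry13 above Olfml3 and Aif1 above Ly86 in 5 of 8 libraries each. The same held for Il10ra above Cd14, Cd14 above Itgam and Mrc1 above Spi1. Exon lengths count the exons of all annotated transcripts, which lowers the value of genes with long alternative transcripts such as Ptprc.

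**Figure D4:**
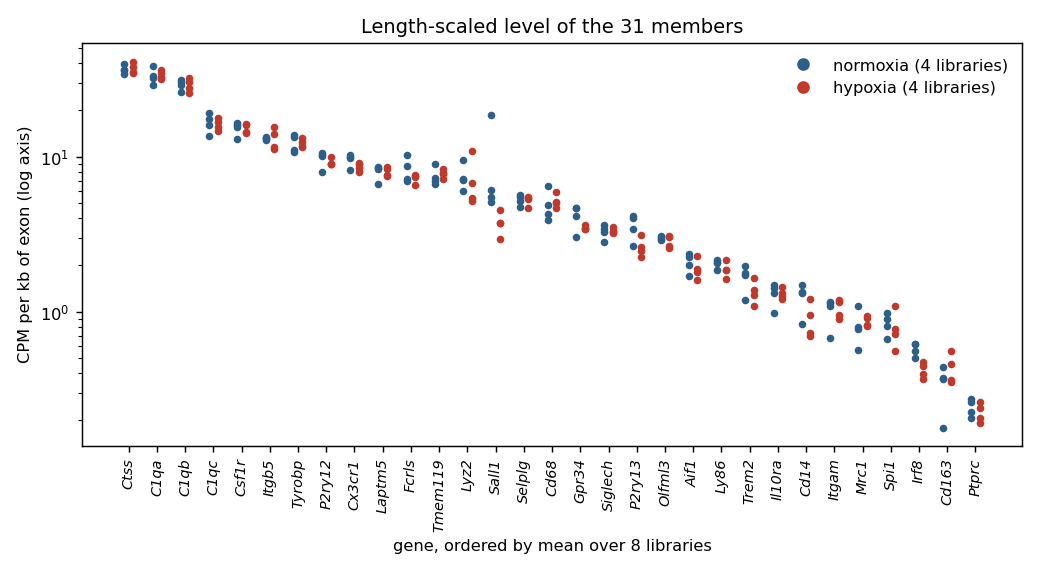
CPM per kb of exon of each gene in each library (vertical log axis), ordered by the mean over the 8 libraries, with normoxia and hypoxia points side by side. Ctss and the C1q chains are at the top, Irf8, Cd163 and Ptprc at the bottom, and the points of the groups separate for Irf8 and Sall1.

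Of 104 tested genes in 6 further lists of these cells and their signalling, edgeR called 2 (1.92%, against 2.15% of all genes), and 15 had an unadjusted p under 0.05 (14.4%, against 19.3%). Of 12 tested ligands and partners of microglial receptors, which include Cx3cl1, Csf1 and Il34, 0 were called by edgeR, DESeq2 or limma-voom and 0 had an unadjusted p under 0.05. The log2 fold change was positive for 6 and negative for 6, and the smallest p was that of Tgfb2 (log2 fold change −0.17, edgeR adjusted p = 0.353). Of 39 other microglia genes, edgeR and limma-voom called 0 and DESeq2 called 1, while 7 (17.9%) had an unadjusted p under 0.05 in edgeR. In this list 24 were negative and 15 positive (median −0.06), and Rgs10, a regulator of G protein signalling, had the smallest p and was the DESeq2 call (0.24, edgeR adjusted p = 0.0916). Among 14 genes of disease-associated microglia 0 were called by any of the 3 tools and 1 had an unadjusted p under 0.05, with a median of 0.00 and Clec7a the smallest p (−0.85, adjusted p = 0.248). Of 11 cytokine and activation genes, edgeR and limma-voom called 0, DESeq2 called 1 and 2 had an unadjusted p under 0.05 in edgeR. There 8 were negative and 3 positive, and Nfkbia, an inhibitor of NF-kappaB, had the smallest p and was the DESeq2 call (0.87, edgeR adjusted p = 0.0621). Il10 had a count of 0 in all libraries.

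In each of the complement and macrophage lists edgeR called 1 gene, which DESeq2 and limma-voom called too. Cfp, which encodes properdin, the positive regulator of the alternative complement pathway, fell from 12.6, 16.0, 13.4 and 13.8 CPM in normoxia to 8.17, 8.10, 8.70 and 10.4 CPM in hypoxia. All 4 hypoxia libraries were below all 4 normoxia libraries (log2 fold change −0.66 ± 0.11 SE, edgeR adjusted p = 0.0284). The other 15 tested genes of the cascade beyond C1q were not called, and 12 of the 16 were negative (median −0.12). Maf, a transcription factor expressed in macrophages and other cells, fell from 15.5, 15.7, 15.3 and 18.4 CPM in normoxia to 10.8, 12.1, 10.5 and 13.03 CPM in hypoxia. It had no overlap either (−0.48 ± 0.10, adjusted p = 0.0424), and 440 bases of its exons overlap Gm15655 on the opposite strand. The other 13 of 14 tested perivascular and meningeal macrophage genes were not called (median of the 14 −0.09). Both calls were made without normoxia replicate 2 and without hypoxia replicate 4, and both were lost when any 1 of the other 6 libraries was left out, where adjusted p reached 0.120 for Cfp and 0.154 for Maf.

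Calls in the next lists are edgeR's unless another tool is named. Other cell types were read beside the members, and their part in the values above was not tested. Of 15 oligodendrocyte genes 13 were negative (median −0.16), 0 were called by the 3 tools and 2 had an unadjusted p under 0.05, and Sox10, their lineage factor, had the smallest p (−0.41, adjusted p = 0.136). The oligodendrocyte sum was highest in normoxia replicate 1, at 12245 CPM. It was 6905 to 9058 CPM in the other normoxia libraries and 7155 to 10524 CPM in hypoxia. Of 15 astrocyte genes 10 were positive (median 0.05), and the connexin gene Gjb6 was called higher (0.34). That is 6.67% of the list, against 2.15% of all genes. An unadjusted p under 0.05 was reached by 6 (40.0%, against 19.3% of all genes). The groups did not overlap for 4 of the 15, against 13.4% of all genes. Of 15 endothelial genes 11 were negative (median −0.11), with the glucose transporter gene Slc2a1 called higher (0.70) and the transporter gene Slco1a4 and the tight junction gene Ocln called lower (−0.48 each). These calls made up 20.0% of the list, against 2.15% of all genes. Here too 6 had an unadjusted p under 0.05 (40.0%), and 4 of the 15 had no overlap, against 13.4% of all genes. Of 15 neuronal genes 11 were positive (median 0.04), 0 were called by the 3 tools and 1 had an unadjusted p under 0.05, Gad2 (0.22). All 5 red cell genes were negative (median −0.25), 0 were called by the 3 tools and 0 had an unadjusted p under 0.05, and their sum was lowest in hypoxia replicate 1 at 70.7 CPM against 173 to 277 CPM elsewhere. Ccr2, the chemokine receptor of blood monocytes, was at 0.193, 0.586, 0.483 and 0.699 CPM in hypoxia and 0.611, 0.744, 0.861 and 1.86 CPM in normoxia (−1.07, adjusted p = 0.238).

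Genes of neighbouring regions differed in level between libraries too. All 12 striatal genes were positive (median 0.37, Tac1 0.43), 11 of 12 thalamic genes were negative (median −0.38, Zic1 −0.27) and 8 of 9 cortex and hippocampus genes were negative (median −0.66), with Neurod1 called lower (−1.46). That call is 11.1% of the cortex and hippocampus list, against 2.15% of all genes. In the striatal and thalamic lists 0 genes were called. An unadjusted p under 0.05 was reached by 1 gene in each of these lists (8.33%, against 19.3% of all genes). The thalamic sum was 1579 CPM in normoxia replicate 1. It was 964 to 1025 CPM in the other normoxia libraries, within the 936 to 1122 CPM of the hypoxia group. Of 4 tested pituitary genes 3 were negative and Pomc, the smallest p, had 0.43. Of 3 lymphocyte genes tested, Cd79a had the smallest p (−0.43), and Hbb-bt was that of the red cell list (−0.39). In a list of genes switched on by tissue handling, 7 of 11 were negative and Zfp36, an mRNA decay factor, was called higher (0.97). That call is 9.09% of the handling list, against 2.15% of all genes. Exons of Tgfb2, Slc2a1, Neurod1, Zic1 and Zfp36 overlap genes on the opposite strand, so these values are uncertain too. With 1 library left out at a time, Neurod1 was called in 5 of 8 fits, not without hypoxia replicate 1, 2 or 3 (adjusted p at most 0.0684). Gjb6, Slc2a1, Slco1a4, Ocln and Zfp36 were called in 2 of 8, without normoxia replicate 2 or hypoxia replicate 4, with adjusted p of at most 0.142 in the others.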

How the data were processed

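Per the labels' protocols, strand-specific libraries were made from polyadenylated RNA of the hypothalamus. The authors deposited a table of raw counts, with Ensembl genes as rows and a column for each library, and each column name equals a short name in the sample labels. Trimmomatic, HISAT2 2.0.4, SAMtools, featureCounts, DESeq2 and the mouse build mm10 appear in the submitters' processing notes. Which annotation release and strand setting were used, and how multi-mapping reads were handled, is not given in the sources used here, so genes with overlapping exons or near-identical copies are uncertain.

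The counts entered edgeR 4.0.16 (R 4.3.3), with filterByExpr (minimum count 10, minimum total 15), TMM scaling and group as the only term of the quasi-likelihood test. P-values were Benjamini-Hochberg adjusted over 17047 genes, with a threshold of 0.05. Standard errors and 95% intervals come from that fit. CPM values are TMM-scaled, correlations used log2 CPM with a prior count of 2, and levels between genes were divided by exon length. Symbols, exon lengths, overlaps and gene coordinates are those of GENCODE M21 (GRCm38, the assembly of mm10), and promoters are those of RefSeq (GRCm38.p6). Within a group, any 2 libraries differed by a chi-square of 4.62 to 37.3 per gene, so none was counted as a repeat of another. Alternatives were DESeq2 1.42.0, limma-voom 3.58.1, other scalings, no filter, a replicate block, each library left out, and normoxia replicate 2 and hypoxia replicate 4 left out together.

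The members, lists, motifs and alternatives were chosen with earlier results of these data known. Full statistics are given for members with an unadjusted p under 0.05 or no overlap and, in other roles, for the member with the smallest p. From other lists the called genes or the gene with the smallest p are named. The symbols C1s and C5 of the complement list were not matched.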

Additional observations from a re-analysis of the deposited data

Results flagged for a closer look

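In 5 of the 62 groups formed by the 31 genes and the 2 conditions, Dixon's test set 1 library apart from the other 3. The test weighs the gap to the nearest library against the range of the group. A small gap is therefore flagged where the other libraries lie close together. Chance alone flags about 1 in 20 groups, and the 62 groups share the same libraries. In normoxia, Sall1 was at 97.0 CPM in replicate 2 against 26.8 to 32.1 CPM in the others. Itgam was at 3.39 CPM and Laptm5 at 25.2 CPM in normoxia replicate 3, both below the other 3 libraries. In hypoxia, P2ry12 was at 25.3 CPM in replicate 2, above 3 libraries at 22.9 CPM. Gpr34 was at 7.54 CPM in replicate 4, against 7.15 to 7.19 CPM in the others. Both gaps were small beside that of Sall1.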

How the results depend on the processing

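The count of 0 called members was the same in all alternatives except without normoxia replicate 2 and without that library and hypoxia replicate 4, where it was 1, Sall1 in both. With each library left out it therefore ran from 0 to 1, and members without overlap ran from 2 to 7. The number of all genes called, 366, was 962 with DESeq2, 1195 with both libraries left out and 26 to 693 with each left out. Calls in the 6 further lists of microglia, macrophage and signalling genes were 2 of 104 tested (1.92%, against 2.15% of all genes). They were 4 with DESeq2, which called 5.9% of all genes, and 5 with both libraries left out, where 6.98% of all genes were called. With each library left out they were 0 to 5. The labels state no pairing by replicate number, and correlations between same-numbered libraries were −0.11 to 0.04. Those correlations, over all genes tested, cannot decide whether a weak pairing exists. With a replicate block, 21 of all genes and 0 genes of those lists were called, and no member. The sign of the log2 fold change was kept in all 15 alternatives by 16 members. The other 15, all within 0.10 of 0, changed sign in at least 1, and the cause was not tested. With each library left out they ran from −0.024 to 0.11 (C1qa), −0.061 to 0.041 (C1qb), −0.11 to 0.043 (C1qc), −0.060 to 0.046 (Csf1r), −0.061 to 0.054 (Tyrobp), −0.034 to 0.077 (Siglech), −0.022 to 0.073 (Ctss), −0.027 to 0.28 (Mrc1), −0.050 to 0.045 (Selplg), −0.11 to 0.11 (Itgam), −0.089 to 0.065 (Itgb5), −0.37 to 0.054 (Lyz2), −0.068 to 0.041 (Laptm5), −0.29 to 0.036 (Spi1) and −0.094 to 0.077 (Il10ra). Without both libraries, C1qb had 0.000872, C1qc 0.023, Tyrobp 0.043, Selplg 0.014 and Spi1 0.12. With library size alone, Csf1r had −0.022, Ctss −8.46e-05, Laptm5 −0.020 and Il10ra −0.015, and Itgb5 had 0.0053 with DESeq2's size factors and 0.0037 with DESeq2. The standard errors were widest for Sall1 (0.40), Cd163 (0.27), Cd14 (0.24), Lyz2 (0.24) and Spi1 (0.22), and the lowest count of a member in a library was 17.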
